A study of Mus musculus with 2 samples.

Results

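The enzymes of glycolysis, of glycogen storage and of the pentose phosphate branch were followed in mouse calf muscle after immobilisation in a cast. They are 47 genes, taken as the gene spots whose name on the array equals a name on a list of these enzymes, and 67 probes carry such a name. A gene was taken as measured if both arrays had at least 1 and the same probe of it well above background, which held for 45 of the 47 and for 15630 named genes in all. The liver fructose bisphosphatase Fbp1 and the gene called Pgm1 on the array were not well above background on either array, so they have no value. Array names are kept in the text. The reference gene table calls Pkm2 Pkm, and it exchanges the names Pgm1 and Pgm2.

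Glycolysis splits glucose to pyruvate and yields ATP without oxygen, and fast muscle fibres use it for short, strong contractions. Glycogen is the glucose store of the muscle fibre, built by glycogen synthase and branching enzyme and broken down by glycogen phosphorylase under the control of phosphorylase kinase. The pentose phosphate branch takes glucose phosphate off this line to make NADPH and ribose phosphate. Many of these steps have a muscle form and other forms of the same enzyme, encoded by separate genes, and the forms differ in kinetics and in the tissues that make them.

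The samples were RNA pools from the gastrocnemius, a calf muscle rich in fast fibres, of male C57BL/6 mice aged 9 weeks. In the cast group a plaster cast held the hindlimb for 11 days, and the other group is labelled as control. The labels give 6 mice per group and say that the samples were pooled before use, so each group was 1 Cy3-labelled array, n = 1, and there is no replicate, no SE and no test. All differences describe these 2 pools. In bulk muscle, fewer cells of a type and less RNA per cell cannot be told apart.

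Of 39418 probes, the control pool had 60.6% well above background and the cast pool 56.8%. No spot was flagged as saturated on either array. Levels are given as multiples of the 75th percentile of the array's own probes, and ratios are log2(cast/control) of these levels. The ± value beside a ratio is the SD expected from the scatter of spots, found from 265 probes printed several times. It leaves out the spread between mice and between hybridisations. For Pfkm, read on 10 spots, it is the SD of their mean, and for the other members it is that of 1 spot. The median ratio of all genes was -0.03 on this scale, 0.31 with no scaling and 0.32 when arrays were scaled on 7 spike-in RNAs. Any ratio between about 0 and -0.34 therefore turns positive with no scaling. All 10 fast-fibre markers, which mark the fibres this muscle is rich in, were measured. Their levels on the 75th percentile scale summed to 4122 (control) and 3538 (cast), and these sums shift with the scale.

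Most of these enzymes differed little between the pools, with 29 of 45 ratios within 0.34 of 0. The member with the highest ratio was Pfkfb3, which makes the activator of phosphofructokinase, at 1.06, and the lowest was Ldhb, the heart-type lactate dehydrogenase subunit, at -1.54. Higher after the cast by 1.5-fold or more were 2 of 45 members, 4.44%, where 7.08% of all measured genes were. Lower by 1.5-fold or more were 5 of 45, 11.1%, where 8.25% of all genes were. At 2-fold the counts were 1 higher and 2 lower, against 2.25% and 2.10% of all genes. The shares are near those of all genes, so the counts alone do not set the enzymes apart. The balance of the counts turns with the scale, for the members and for all genes alike. Both without scaling and on the spike-in scale 5 of 45 members were at least 1.5-fold higher (Pfkfb3, Aldoc, Gbe1, Pgd and Gpi1) and 3 lower (Ldhb, Eno2 and Pfkfb1). Of all 15630 genes, 3703 were higher and 415 lower without scaling, against 1107 and 1290 here.

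The median ratio of the 45 members was -0.11, and 15 lay above 0, which is 33.3% against 46.8% of all genes. Without scaling the median was 0.22, on the spike-in scale it was 0.24, and 33 members lay above 0 on each. The median of all genes was 0.31 and 0.32 on those scales, and the share of all genes above 0 was not counted there. Many of these enzymes are bright in muscle, and when all genes were cut by signal into 10 classes of equal size, 23 of the 45 members fell in the brightest. Those 23 had a median of -0.11 with 6 above 0, while all genes of that class had a median of 0.06. The other 22 members had a median of -0.07 with 9 above 0. Bright and dim members thus had medians on the same side of 0 at this scale.

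**Figure D1:**
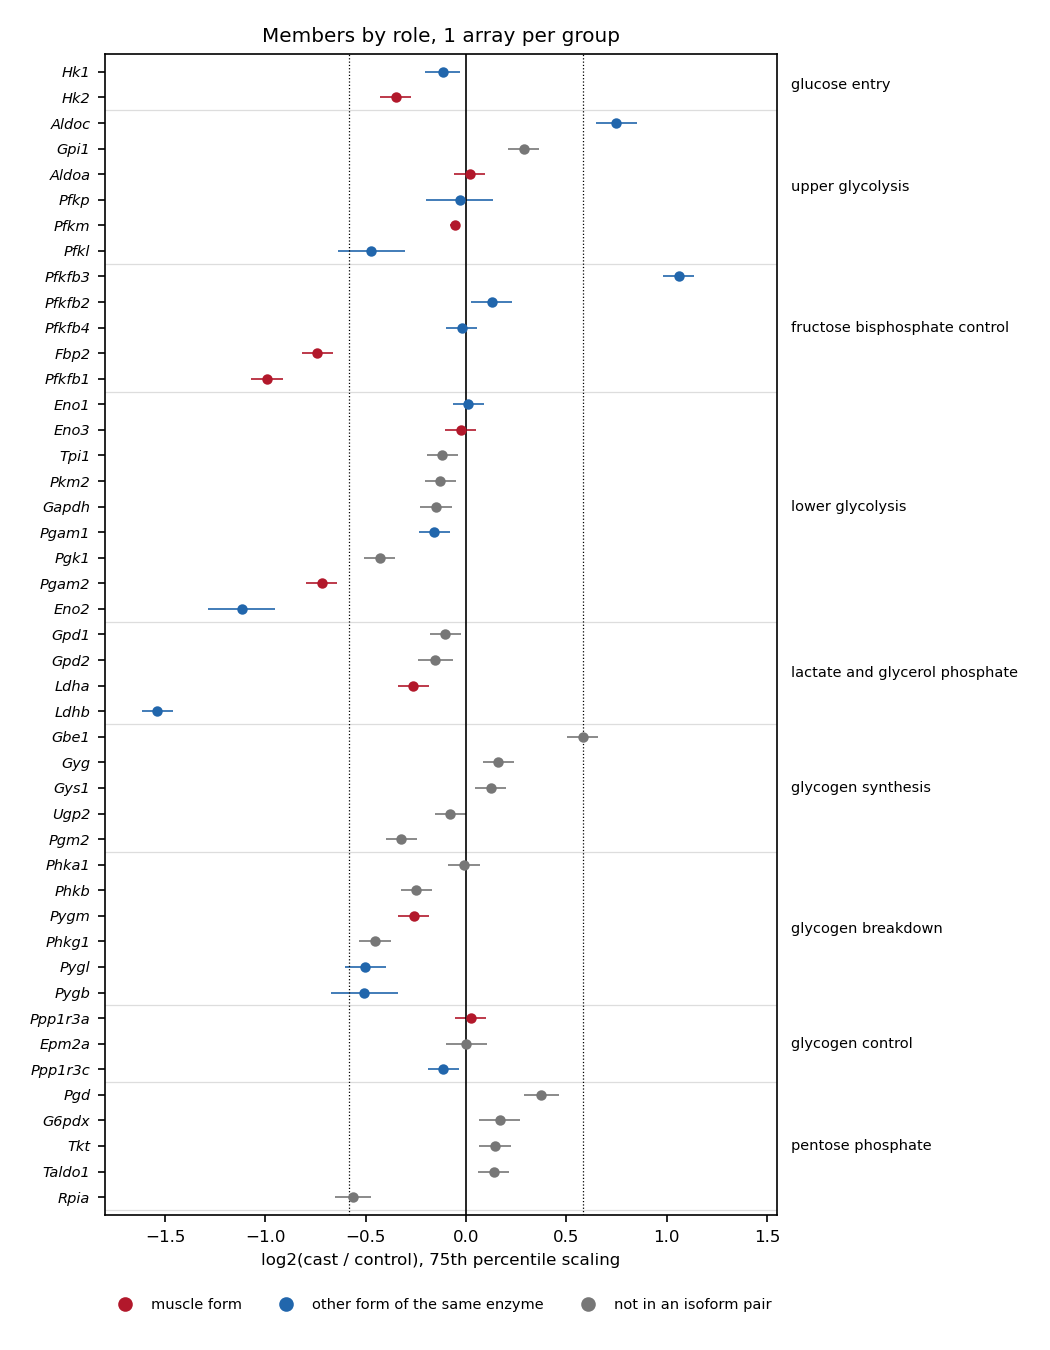
Each point is the log2(cast/control) of a measured member under 75th percentile scaling, grouped by role, with bars of 1 spot-level SD; dotted lines mark a 1.5-fold difference. Pfkfb3 and Aldoc lie beyond the right line, Ldhb, Eno2, Pfkfb1, Fbp2 and Pgam2 beyond the left one, and Gbe1 lies just inside the right one.

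Hexokinases trap glucose in the cell by phosphorylating it. Hk2, the insulin-responsive form of muscle and fat, had a level of 18.7 without and 14.6 with the cast, a ratio of -0.35 ± 0.08. Without scaling it was at -0.01, so its difference depends on the scale. Hk1, the form of most tissues, was at -0.12 ± 0.09, and its second, dimmer probe gave 0.37, so its direction depends on the probe.

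The largest contrast lay at the control point of glycolysis, the step between fructose phosphate and fructose bisphosphate. The Pfkfb genes encode bifunctional enzymes that make and remove the sugar bisphosphate which activates phosphofructokinase. Pfkfb3, the inducible form, whose kinase activity far exceeds its phosphatase activity, had a level of 24.7 in the control pool and 51.5 in the cast pool. That is 2.09-fold higher, a ratio of 1.06 ± 0.08. Its second probe lies elsewhere in the transcript and gave levels of 0.795 and 1.87, a ratio of 1.24, so both probes were higher on the cast array by a like amount. Pfkfb1, the form of liver and muscle, went the other way, from 18.0 to 9.04, 1.99-fold lower, a ratio of -0.99 ± 0.08. The heart form Pfkfb2, at 0.472 and 0.516, had a ratio of 0.13 ± 0.10. The testis form Pfkfb4, at 12.6 and 12.4, had one of -0.02 ± 0.08. The signs of Pfkfb3 and Pfkfb1, and a difference of at least 1.5-fold, were kept under all 11 alternatives run.

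Fbp2, the muscle fructose bisphosphatase, runs that step backwards when glycogen is rebuilt from lactate. Its level was 4.03 without and 2.41 with the cast, 1.67-fold lower, a ratio of -0.74 ± 0.08. Without scaling it was at -0.40, and at -0.39 on the spike-in scale, so it was lower there too but by less than 1.5-fold. Phosphofructokinase itself, the enzyme these regulators act on, differed less. Its muscle subunit Pfkm, measured on 10 spots, was at 353 and 340, a ratio of -0.06 ± 0.02 that turned positive with no, median, quantile and spike-in scaling. The liver subunit Pfkl was at -0.47 ± 0.17 and the platelet subunit Pfkp at -0.03 ± 0.17, both from dim probes.

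The probes of Pfkfb3 and Fbp2 that cross an exon junction are shown because they read the spliced transcripts of an activating and an opposing enzyme of this step, whose ratios were opposite. The outer mm9 coordinates span 1414 bases for Pfkfb3 (chr2:11404189-11405602, minus strand) and 4516 bases for Fbp2 (chr13:62950852-62955367, minus strand), while each probe has 60 bases. The probes are in lower case throughout.
Pfkfb3 probe: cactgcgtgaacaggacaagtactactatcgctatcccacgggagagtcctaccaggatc
Fbp2 probe: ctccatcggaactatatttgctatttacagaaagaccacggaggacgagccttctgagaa
The brighter Pfkfb3 probe lies at chr2:11393453-11393512 and the Pfkfb1 probe at chrX:147078320-147078379, both on mm9. Gene models of that build were not used here, so whether a probe lies in coding exons is not given.

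**Figure D2:**
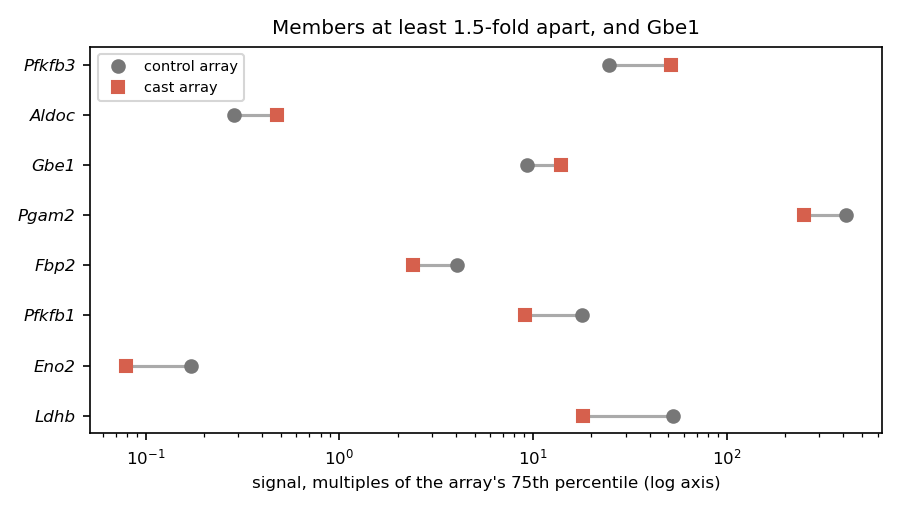
Levels of the 7 members at least 1.5-fold apart, and of Gbe1 just under that, on the control array (circles) and the cast array (squares), as multiples of each array's 75th percentile on a log axis. Pfkfb3, Aldoc and Gbe1 have the square to the right, and the other 5 have it to the left; levels of different genes are not comparable.

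The remaining enzymes of upper glycolysis showed 1 sizeable difference, in the brain form of aldolase. Aldolase splits fructose bisphosphate into triose phosphates. Aldoc, that form, had a level of 0.285 in the control pool and 0.479 in the cast pool, 1.68-fold higher, a ratio of 0.75 ± 0.10. This probe is dim, and with normexp background correction the ratio was 0.44. Aldoa, the muscle form, was at 1326 and 1344, a ratio of 0.02 ± 0.08 that turned negative with quantile and loess scaling. The Aldoa spot is very bright, but its raw mean signals, 387462 and 507443, stayed below the saturation values of 608846 and 607897 in the file headers. Glucose phosphate isomerase, Gpi1, had 3 overlapping probes, with ratios from 0.0027 to 0.29.

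In lower glycolysis, where triose phosphate is turned into pyruvate, 8 of 9 members were below 0 and the median was -0.15. Without scaling that median was 0.19, and on the spike-in scale 0.20, where 6 of 9 were above 0. Pgam2, the muscle phosphoglycerate mutase, stood lowest among the bright members of this stretch. It had a level of 412 without and 250.2 with the cast, 1.65-fold lower, a ratio of -0.72 ± 0.08. Without scaling it was at -0.38, and at -0.37 on the spike-in scale. Pgam1, the brain form, was at -0.16 ± 0.08, with levels of 4.15 and 3.72. The Pgam2 probe crosses an exon junction as well (mm9 chr11:5701822-5703040, minus strand, 1219 bases for a probe of 60) and is shown as the only reading of this lower muscle form.
Pgam2 probe: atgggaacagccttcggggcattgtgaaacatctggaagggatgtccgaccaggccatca

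Phosphoglycerate kinase, Pgk1, the first ATP-making step, followed at -0.43 ± 0.08, from 150.3 to 111.5. Eno2, the neuronal enolase, was 2.17-fold lower, from 0.173 to 0.0796, a ratio of -1.12 ± 0.17. Its signal is close to background, and with normexp the ratio was -0.52. Eno3, the muscle form, had levels of 473 and 464, a ratio of -0.03 ± 0.08, and Eno1, the widespread form, had a ratio of 0.01 ± 0.08. Of 8 Schwann cell and nerve markers 7 were measured, with 3 above 0 and a median of -0.14, which turns positive with no scaling. Their summed level was 10.2 in the control pool and 9.99 in the cast pool. The widest of them were Mbp at 0.48, whose 3 probes ran from -0.09 to 0.64, and S100b at -0.41, and the neurofilament gene Nefl was not well above background. The part of nerve RNA in the Eno2 and Aldoc values was not tested.

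Tpi1, Gapdh and Pkm2, which are triosephosphate isomerase, glyceraldehyde phosphate dehydrogenase and pyruvate kinase, lay between -0.15 and -0.12. All 3 were above 0 without scaling and on the spike-in scale. Over the 10 steps with the muscle form or the sole form, from Gpi1 to Ldha, the median was -0.12 and 8 were below 0. With no scaling 8 of the 10 were above 0, and with quantile scaling the median was 0. The main line of glycolysis thus had no common direction that held across scalings. Pgam2 and Pgk1 were below 0 and Gpi1 was above 0 under all 11 alternatives. For Gpi1 this holds for the value of the gene, which took the highest of its probe ratios, 0.29, 0.12 and 0.0027, at the main scale.

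At the end of the line, lactate dehydrogenase converts pyruvate and lactate into each other. Its heart subunit Ldhb, which is typical of oxidative fibres and heart, had a level of 52.9 in the control pool and 18.2 after the cast. It was 2.91-fold lower, a ratio of -1.54 ± 0.08, and ranged from -1.62 to -1.19 over the alternatives. The probe lies at chr6:142438770-142438829 on mm9. The muscle subunit Ldha had levels of 362 and 302, a ratio of -0.26 ± 0.08, and its 3 probes gave ratios from -0.43 to -0.26. Ldha turned positive without scaling and on the spike-in scale. The glycerol phosphate dehydrogenases, which carry reducing power from the cytosol to the mitochondrion, were at -0.10 ± 0.08 for the cytosolic Gpd1 and -0.15 ± 0.09 for the mitochondrial Gpd2.

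Slow-fibre markers were lower on the cast array too. All 7 were measured and below 0, 6 of them at least 1.5-fold, with a median of -0.78 and a summed level of 466 without and 188 with the cast. Myl3 and Myl2, slow myosin light chains, were the lowest, at -1.90 and -1.72. Of the 10 fast-fibre markers 8 were below 0, with a median of -0.16 that turns positive with no scaling. Myh2 of oxidative fast fibres was lowest at -1.38, followed by the fast troponin Tnni2 at -0.59. The part of fibre type in the Ldhb value was not tested.

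The isoform comparison does not depend on how the arrays are scaled by a constant, because both forms shift alike. Of 15 pairs of a muscle form and another form, 14 had both measured. The muscle form had the lower ratio in 8 pairs and the higher in 6, and the median difference was -0.03. That median had no stable sign, since it was 0.14 with quantile scaling and -0.14 with loess scaling. In 6 pairs the ratios were at least 1.5-fold apart. Lower in the muscle form were Pfkfb1 against Pfkfb3 (-2.05 ± 0.11), against Pfkfb2 (-1.12 ± 0.13) and against Pfkfb4 (-0.97 ± 0.11), and Aldoa against Aldoc (-0.73 ± 0.13). These 3 Pfkfb pairs share the value of Pfkfb1.

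Higher in the muscle form were Ldha against Ldhb (1.28 ± 0.11) and Eno3 against Eno2 (1.09 ± 0.18). The difference of Aldoa and Aldoc was -0.35 and that of Eno3 and Eno2 was 0.49 at their smallest over the alternatives, both under 1.5-fold. Pgam2 against Pgam1, at -0.56 ± 0.11, lay just under 1.5-fold. The glycogen phosphorylases were close, with Pygm 0.25 ± 0.18 above Pygb and 0.24 ± 0.13 above Pygl. Hk2 against Hk1 was at -0.23 ± 0.12, Pfkm against Pfkl at 0.41 ± 0.17 and Ppp1r3a against Ppp1r3c at 0.14 ± 0.11. Pfkm against Pfkp, at -0.02 ± 0.17, and Eno3 against Eno1, at -0.04 ± 0.11, differed by less than the spot-level SD.

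**Figure D3:**
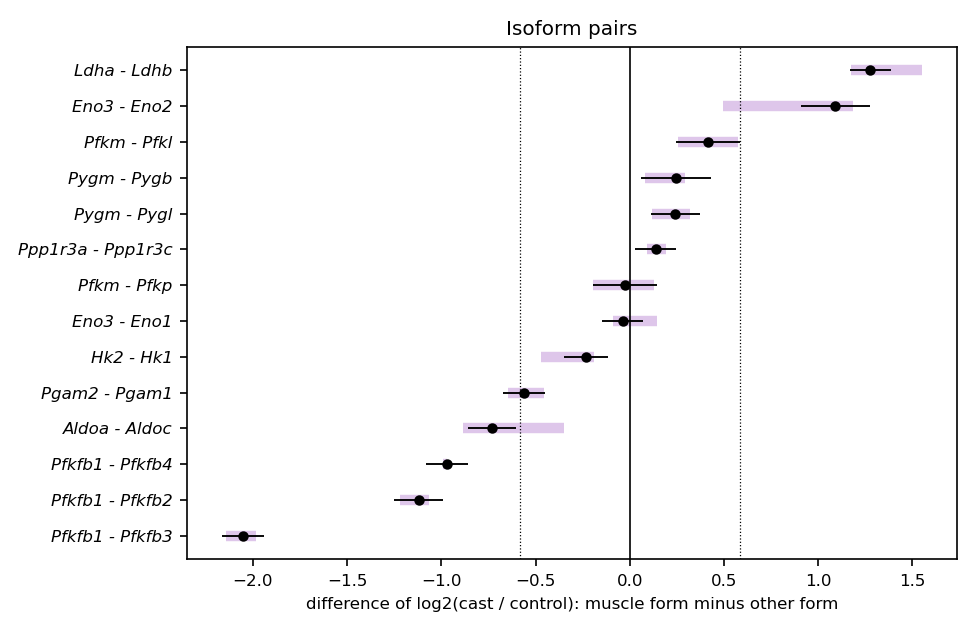
Each point is the log2(cast/control) of the muscle form minus that of the other form, with a bar of 1 spot-level SD; the shaded bar is the range over the alternatives and dotted lines mark a 1.5-fold difference. The pairs run from -2.05 for Pfkfb1 and Pfkfb3 to 1.28 for Ldha and Ldhb, with 8 of 14 below 0.

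Genes that build glycogen and genes that break it down had medians on different sides of 0. Gbe1, the branching enzyme, had the highest ratio on the building side, with levels of 9.34 and 14.0, a ratio of 0.58 ± 0.08, just under the 1.5-fold threshold of 0.585. It was between 0.53 and 0.93 over the alternatives. Glycogenin, Gyg, which primes a new glycogen particle, was at 0.16 ± 0.08, with its second, overlapping probe at 0.17, and glycogen synthase, Gys1, was at 0.12 ± 0.08 with its second probe at 0.20. Ugp2, which makes the UDP-glucose that is added, was at -0.08 ± 0.08, and its second probe gave 0.07. The gene called Pgm2 on the array, a phosphoglucomutase, was at -0.32 ± 0.08. The median of these 5 was 0.12, and 3 were above 0.

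All 6 genes of glycogen breakdown were below 0, with a median of -0.36 and no member 1.5-fold apart. Without scaling 3 of the 6 were above 0 and the median was -0.02. The muscle phosphorylase Pygm had levels of 281 and 234, a ratio of -0.26 ± 0.08. The brain form Pygb and the liver form Pygl, both dim, were at -0.51 ± 0.17 and -0.50 ± 0.10. Of the phosphorylase kinase subunits, the catalytic Phkg1 was at -0.45 ± 0.08, and its second, overlapping probe gave -0.46. The regulatory subunits Phkb and Phka1 were at -0.25 ± 0.08 and -0.01 ± 0.08, and the second Phkb probe gave 0.0024. The median of the building genes was above 0 and that of the breakdown genes below 0 under each alternative, and the nearest to 0 were 0.05 with quantile scaling and -0.0080 on the spike-in scale.

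The 3 members that regulate glycogen metabolism were close to 0. Ppp1r3a and Ppp1r3c bring protein phosphatase to the glycogen particle, and had ratios of 0.02 ± 0.08 and -0.11 ± 0.08. Of the measured subunits of this family outside the members, Ppp1r3d was at -0.66, Ppp1r3b at -0.05 and Ppp1r3f at 0.89. Laforin, Epm2a, which removes phosphate from glycogen, was at 0.0013 ± 0.10.

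In the pentose phosphate branch 4 of 5 members were above 0, as they were under each of the 11 alternatives. Pgd, the phosphogluconate dehydrogenase, which makes NADPH, had levels of 1.24 and 1.61, a ratio of 0.38 ± 0.09. The entry enzyme G6pdx was at 0.17 ± 0.10, transketolase, Tkt, at 0.14 ± 0.08 and transaldolase, Taldo1, at 0.14 ± 0.08. Ribose phosphate isomerase, Rpia, which makes ribose phosphate, was the exception, with levels of 1.80 and 1.22, a ratio of -0.565 ± 0.09. None of the 5 reached 1.5-fold at this scale, while Pgd was at 0.71 without scaling and 0.72 on the spike-in scale, past that threshold.

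Cells other than fibres also carry these enzymes, so their markers are given beside the dim forms. Of 12 macrophage markers 10 were measured and 8 were above 0, with a median of 0.36, led by Mpeg1 at 0.83 and Lyz2 at 0.58. Their summed level was 23.2 in the control pool and 20.6 in the cast pool, and Cd68 and Cd163 were not well above background. The sum runs against the median because of Itgam, the brightest of the list, which went from 13.8 to 9.53, a ratio of -0.53. The other 9 measured markers summed to 9.38 and 11.1. All 8 fibroblast markers were below 0, with a median of -0.82 and a summed level of 228 and 133, and Col1a1 and Col1a2 were at -1.76 and -1.70. Of 8 endothelial markers 7 were below 0, with a median of -0.23 and sums of 47.8 and 39.1, and Emcn and Kdr were at -0.68 and -0.56. Of 8 adipocyte markers 7 were measured and 5 were below 0, with a median of -0.15 and sums of 97.7 and 87.6, Retn and Pnpla3 being at 0.86 and 0.59, and Lep not well above background. A second Pnpla3 probe gave -0.31, so its direction depends on the probe. The 3 measured of 7 red cell markers were above 0, with a median of 0.16 and sums of 166 and 192, Hba-a1 and Alas2 being at 0.21 and 0.16. The endothelial and adipocyte medians, at -0.23 and -0.15, turn positive with no scaling. All sums here are on the 75th percentile scale and shift with it. The part of these cells in the enzyme values was not tested.

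Other genes of the same pathways came from a list of 42 enzymes and regulators outside the 47, of which 27 were measured. Of these, 15 were above 0 and the median was 0.03, with 6 at least 1.5-fold higher, 22.2% against 7.08% of all genes, and 2 at least 1.5-fold lower, 7.41% against 8.25%. Stbd1, which tethers glycogen to membranes, had levels of 10.2 and 29.1, a ratio of 1.51. Rbks, the ribokinase, went from 0.658 to 1.56, a ratio of 1.24. Adpgk, a glucokinase that uses ADP, went from 0.356 to 0.715, a ratio of 1.01.

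Among the rest of that list, Ppp1r3f, a further glycogen-targeting subunit with a dim probe, was at 0.89. H6pd, which runs the first pentose phosphate steps in the endoplasmic reticulum, was at 0.79, from 5.34 to 9.24. Ldhd, a mitochondrial enzyme that oxidises the D form of lactate, was lowest, from 6.13 to 2.42, a ratio of -1.34. The liver glycogen synthase Gys2, dim at a level of 0.104, was well above background on the control array alone and was at least 2.46-fold lower on the cast array. Hk3 and Pgk2 were also above background on the control array alone, with bounds of only 1.06-fold and 1.08-fold. Each gene of this list named with a ratio was read by 1 probe.

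A sequence feature that the choice of genes did not use was looked up in the promoters. RefSeq start sites on GRCm38.p6 gave 66 windows of 300 bases, from 250 before the start, for 46 of the 47 genes. ACGTG, the core of the hypoxia response element, was found on either strand in 28 of the 66 windows, 42.4%, against 19.6% of all 32851 windows. The member windows are richer in G and C, with a median of 59.5% against 52.7%. ACGTG holds the letters CG, whose median count was 16.5 in member windows and 7 in all windows. Among windows in the middle GC range of the members the shares were 37.5% of 32 and 24.1% of 9280, with median CG counts of 17.5 and 15. At least 1 window with this motif was held by both members that were 1.5-fold higher, by 1 of the 5 that were lower and by 20 of the 37 between. Among all 46 members with a window it was 24. These counts by gene take any window of a gene, and some windows of a gene overlap. No such share was found for all genes.

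The longer E-box CACGTG contains ACGTG on both strands, and 10.6% of member windows and 7.15% of all windows hold it. CAGCTG, the E-box of myogenic factors, was in 24.2% and 16.3%. The 7 members with CACGTG had ratios from -0.74 for Fbp2 to 1.06 for Pfkfb3. These windows are shown because they hold the same motif at a like distance before the start, 53 bases in Pfkfb3 and 42 in Fbp2, while the ratios of the genes were opposite. They lie on the minus strand at chr2:11502041-11502340 and chr13:62858351-62858650 on GRCm38.p6, and capitals mark the motif. A match is a description of the letters and shows no binding.
Pfkfb3 promoter: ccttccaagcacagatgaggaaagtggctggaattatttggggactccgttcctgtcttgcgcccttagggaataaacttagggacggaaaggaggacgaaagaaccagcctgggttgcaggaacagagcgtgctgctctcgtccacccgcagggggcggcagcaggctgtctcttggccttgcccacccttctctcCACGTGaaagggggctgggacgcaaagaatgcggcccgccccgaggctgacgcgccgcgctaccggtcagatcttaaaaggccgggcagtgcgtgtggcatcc
Fbp2 promoter: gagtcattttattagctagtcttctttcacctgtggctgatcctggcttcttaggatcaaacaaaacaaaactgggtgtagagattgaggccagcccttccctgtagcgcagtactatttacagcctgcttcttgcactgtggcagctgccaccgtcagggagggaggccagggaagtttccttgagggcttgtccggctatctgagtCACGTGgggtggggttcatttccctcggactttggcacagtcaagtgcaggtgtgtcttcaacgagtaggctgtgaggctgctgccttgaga

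**Figure D4:**
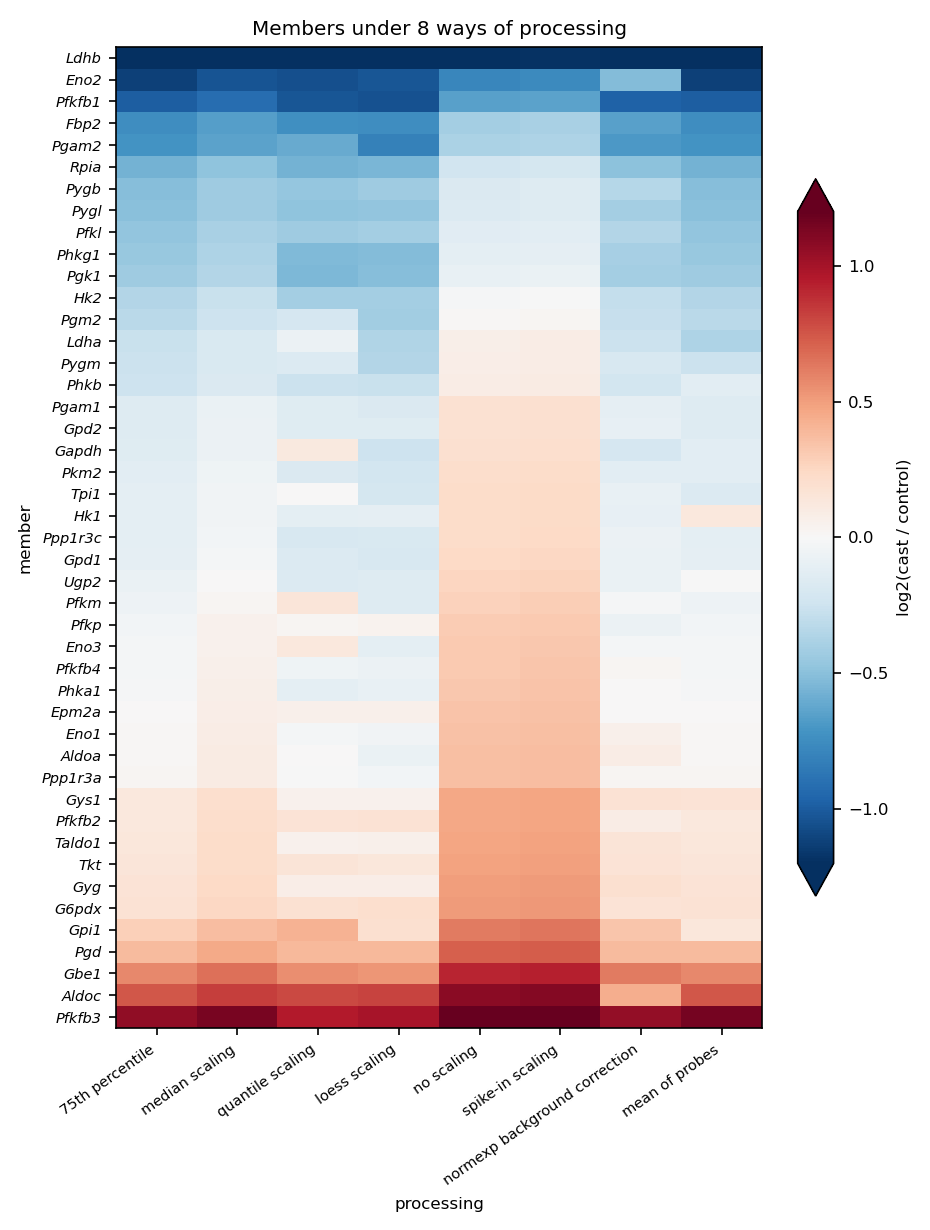
Colours give log2(cast/control) of the 45 measured members (rows) under 8 ways of processing (columns), cut off at 1.2 in either direction on the colour scale. Ldhb, Eno2, Pfkfb1, Fbp2 and Pgam2 stay blue and Pfkfb3, Aldoc, Gbe1 and Pgd stay red in each column, while most members in the middle turn red without scaling and on the spike-in scale.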

How the data were processed

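Gene expression was measured in pooled gastrocnemius RNA on 1 one-colour array per group, control and cast. The submitters' processing notes name Agilent Feature Extraction 9.5 as the source of the deposited spot intensities, and per the file headers the processed intensity is background-subtracted and detrended within the array, with probes placed on mm9. It is not scaled between arrays. A deposited series table of intensities, the same signals divided by a 75th percentile and set to a common constant, as comparison with the scanner files showed, served as an alternative. Its columns are linear and not centred, with medians of 9.00 and 8.70.

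Signals were log2-transformed, spots of a probe averaged, control and non-uniform spots (2 and 9) left out, and each array's 75th percentile over non-control probes (385 and 486) subtracted. A gene took its brightest probe that was well above background on both arrays, on over 0.5 of the spots. Members were matched by the array's names. Other probes were named by accession through RefSeq (26161 of 39429 probes) or kept the array's name. Counts use 1.5-fold and 2-fold thresholds, since 1 array a group allows no test. A bound sets the bright level against the higher of the other array's lowest well-above-background level and the dim probe's own. The enzymes, pairs, marker lists and alternatives were chosen with earlier results of these data known. Every member is named, and both levels are given for those 1.5-fold apart. Of the other pathway genes up to 6 at least 1.5-fold apart are named, and up to 2 per marker list, by size. Ppp1r3d, at -0.66, and Phkg2, at 0.63, were the other 2 past that threshold. Ppp1r3d and Ppp1r3b were named beside Ppp1r3a after their values were seen. Itgam, and Gys2, Cd68 and other genes not above background, were named after their values were seen. Python 3.11.15 with statsmodels 0.14.6 (loess) and R 4.3.3 with limma 3.58.1 (normexp, offset 50) were used, and the scaling steps were tested on simulated data.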

Additional observations from a re-analysis of the deposited data

How the results depend on the processing

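There were 11 alternatives to the processing. All 7 members at least 1.5-fold apart kept their direction in each, and Ldhb, Pfkfb1 and Pfkfb3 also stayed at least 1.5-fold apart in each. Fbp2 and Pgam2 came under 1.5-fold without scaling and on the spike-in scale, and Aldoc and Eno2 with normexp background correction. Of the 45 measured members, 23 kept their sign in all alternatives and 22 did not. Without scaling and on the spike-in scale alike, the count of members at least 1.5-fold higher went from 2 to 5, the count lower from 5 to 3, and the median of the members from -0.11 to 0.22 and 0.24; those arrays differ by a constant of 0.34 and 0.35 from the 75th percentile scaling. Over all genes the 1107 higher and 1290 lower became 3703 and 415 without scaling, 3820 and 401 on the spike-in scale, 1471 and 978 with median scaling, and 768 and 699 with normexp. With no detection filter they were 2117 and 2883. The median difference between muscle and other forms was -0.03, and 0.14 with quantile and -0.14 with loess scaling; the cause was not tested. No paired analysis was possible because each group has 1 array. No array could be left out for the same reason. Signal over background limits the dim members, Eno2, Pfkl, Pfkp and Pygb, whose spot-level SD was 0.17 against 0.08 for the brightest.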

Other observations

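Of 11 members with several probes on both arrays, 7 had all probes of 1 sign. The exceptions were Hk1, Gapdh, Ugp2 and Phkb, and the median range between probes of a member was 0.17. Gapdh, often used as a reference gene, had the widest range, 0.54, with 7 probes from -0.23 to 0.30. The probe at 0.30 lies on chromosome 6 of mm9 (125111869 to 125111928). It overlaps the probe used for the gene (125111878 to 125111937), which gave -0.15. The Gapdh probe placed on chromosome 8 of mm9 (94212520 to 94212579), away from the other 6 on chromosome 6, had levels of 554 and 477, a ratio of -0.21.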
